A study of Fagopyrum tataricum with 9 samples.

Results

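Plants move carbon as sucrose, and 82 of the 33931 genes in the deposited tables of Tartary buckwheat (Fagopyrum tataricum) carry a protein match that transports, cleaves or makes it. They were chosen by name alone: the Swiss-Prot match listed for the gene had to contain sucrose synthase, sucrose-phosphate synthase, sucrose-phosphatase, sucrose transport, SWEET, invertase or beta-fructofuranosidase, and 7 invertase inhibitors were left out of the 89 genes so found. The names are therefore those of the best match in another plant, not of characterised buckwheat genes. Matches differed in strength: the listed e-value, smaller for a stronger match, was 0 for 33 of the 82. Among tested genes the weakest were 9.9e-10 for FtPinG0001943900.01, 3.2e-11 for FtPinG0008165100.01 and 3.6e-23 for FtPinG0000812400.01. Of the 82, 33 matched SWEET carriers, 15 sucrose transport proteins, 11 acid invertases, 10 alkaline/neutral invertases, 7 sucrose synthases, 3 sucrose-phosphate synthases and 3 sucrose-phosphatases. Levels are given as TMM-scaled FPKM, the deposited read count divided by gene length and by a library size corrected for composition, a scale on which genes of different length can be compared.

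RNA was from whole seeds of MIQIAO 1, a Tartary buckwheat described in the study's title as easy to dehull, at 3 stages with 3 libraries each, namely green fruit, followed by discoloration and, last, initial maturity. The labels also give 13, 19 and 25 days post anthesis. They do not pair days with stage names, so the earliest day is read here as green fruit and the latest as initial maturity. No treatment or genotype differed between the groups, and stage is the comparison. Per the labels, seeds of all stages were taken from the same individual plant, and 3 plants gave the 3 replicates. Stages are thus not independent in plant, but no label says which library number is which plant, so plant is not a term of the tests.

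Sucrose made in leaves reaches the seed through the phloem, and the seed imports or cleaves it where the maternal tissue ends and the embryo and endosperm begin. Invertases split it irreversibly into glucose and fructose, in the cell wall and the vacuole at acid pH and in the cytosol and organelles at neutral pH, whereas sucrose synthase splits it reversibly with UDP and yields UDP-glucose, a precursor of starch and cell walls. Sucrose-phosphate synthase and sucrose-phosphatase make sucrose, sucrose transport proteins (SUT or SUC) carry it with protons, and SWEETs let sugars pass down their gradient.

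Library totals were between 21585045 and 26777643 counts. In each stage a pair of libraries lay close together (green fruit 2 and 3, discoloration 2 and 3, initial maturity 1 and 3; chi-square per degree of freedom between 1.98 and 3.54, where sampling alone gives about 1), and the other library stood apart (42.5 to 255). Each test is therefore also given, where it ends a call, with the close pair added together as 1 sample. The summed level of 18 seed storage protein genes had medians of 14227 TMM-scaled FPKM in green fruit, 219102 in discoloration and 285420 in initial maturity, and all 18 were detected in each stage. Green fruit 1 held 46438 of it, against 13717 and 14227 in green fruit 2 and 3. The summed level of 21 green tissue genes, all detected, had medians of 4801, 968 and 76.2 TMM-scaled FPKM over the same 3 stages, with 2004 in green fruit 1. The summed level of 29 phloem marker genes, 25 of them detected, had medians of 20.4, 38.2 and 66.0, ranging from 19.7 to 23.2, from 37.5 to 47.3 and from 64.8 to 81.7. The summed level of 7 genes with pollen in their match, 6 of them detected, had medians of 481, 242 and 237. In whole seeds, fewer cells of a type and less RNA per cell cannot be told apart, and the part of changing tissue shares in the results that follow was not tested.

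The low-count filter left 55 of the 82 sucrose genes for testing, among 23631 genes in all. Another 15 had counts but no more than 33 over the 9 libraries, and 12 had none. All sucrose-phosphate synthase and sucrose-phosphatase genes were tested, as were 9 of 10 alkaline/neutral invertases, 6 of 7 sucrose synthases, 9 of 15 sucrose transport proteins, 20 of 33 SWEETs and 5 of 11 acid invertases. The tested genes had a median length of 1578 bases and the untested ones of 797 bases.

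Sucrose genes changed in both directions across seed development. At discoloration against green fruit 18 tested sucrose genes rose, 32.7% of the 55, beside 19.5% of all genes tested, and 12 fell, 21.8%, beside 19.9% of all genes. Between the later stages, initial maturity against discoloration, 10 rose (18.2%, beside 16.0% of all genes) and 16 fell (29.1%, beside 20.4%). Over the whole span, initial maturity against green fruit, 20 rose (36.4%, beside 28.3%) and 21 fell (38.2%, beside 32.5%). The median log2 fold change of the 55 was 0.05, -0.28 and 0.04 in these comparisons, where that of all genes was -0.04, -0.02 and -0.06. An F test over the 3 stages called 45 of the 55 (81.8%, beside 65.4% of all genes). The comparisons share libraries and are not independent of each other.

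These counts depend on how the libraries are taken. With close pairs added together, 7 rose and 6 fell at discoloration against green fruit, 2 rose and 1 fell at initial maturity against discoloration, and 14 rose and 17 fell at initial maturity against green fruit. Of the 24572 genes then tested, 1717 rose and 1160 fell, 482 rose and 1181 fell, and 4095 rose and 5088 fell. The 16 genes that fell at initial maturity against discoloration became 9 without discoloration 2 or without discoloration 3, and 10 without initial maturity 3. Falls among all genes went from 4830 of 23631 to 3315 of 24326, 3329 of 24342 and 3794 of 24355 in these fits. Scaling to library totals alone, without TMM, put the median log2 fold change of all genes at -1.03, -0.37 and -1.39 in the order of comparisons above. The calls became 7 higher and 27 lower, 6 higher and 24 lower, and 8 higher and 35 lower. Of all 23631 genes tested, 1832 were higher and 16127 lower, 1886 and 7192, and 2095 and 17418. Of the called sucrose genes, 5 of 30 at discoloration against green fruit and 7 of 41 at initial maturity against green fruit then changed from higher to lower, and 0 of 26 at initial maturity against discoloration. Changes below are relative to the TMM scale.

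**Figure D1:**
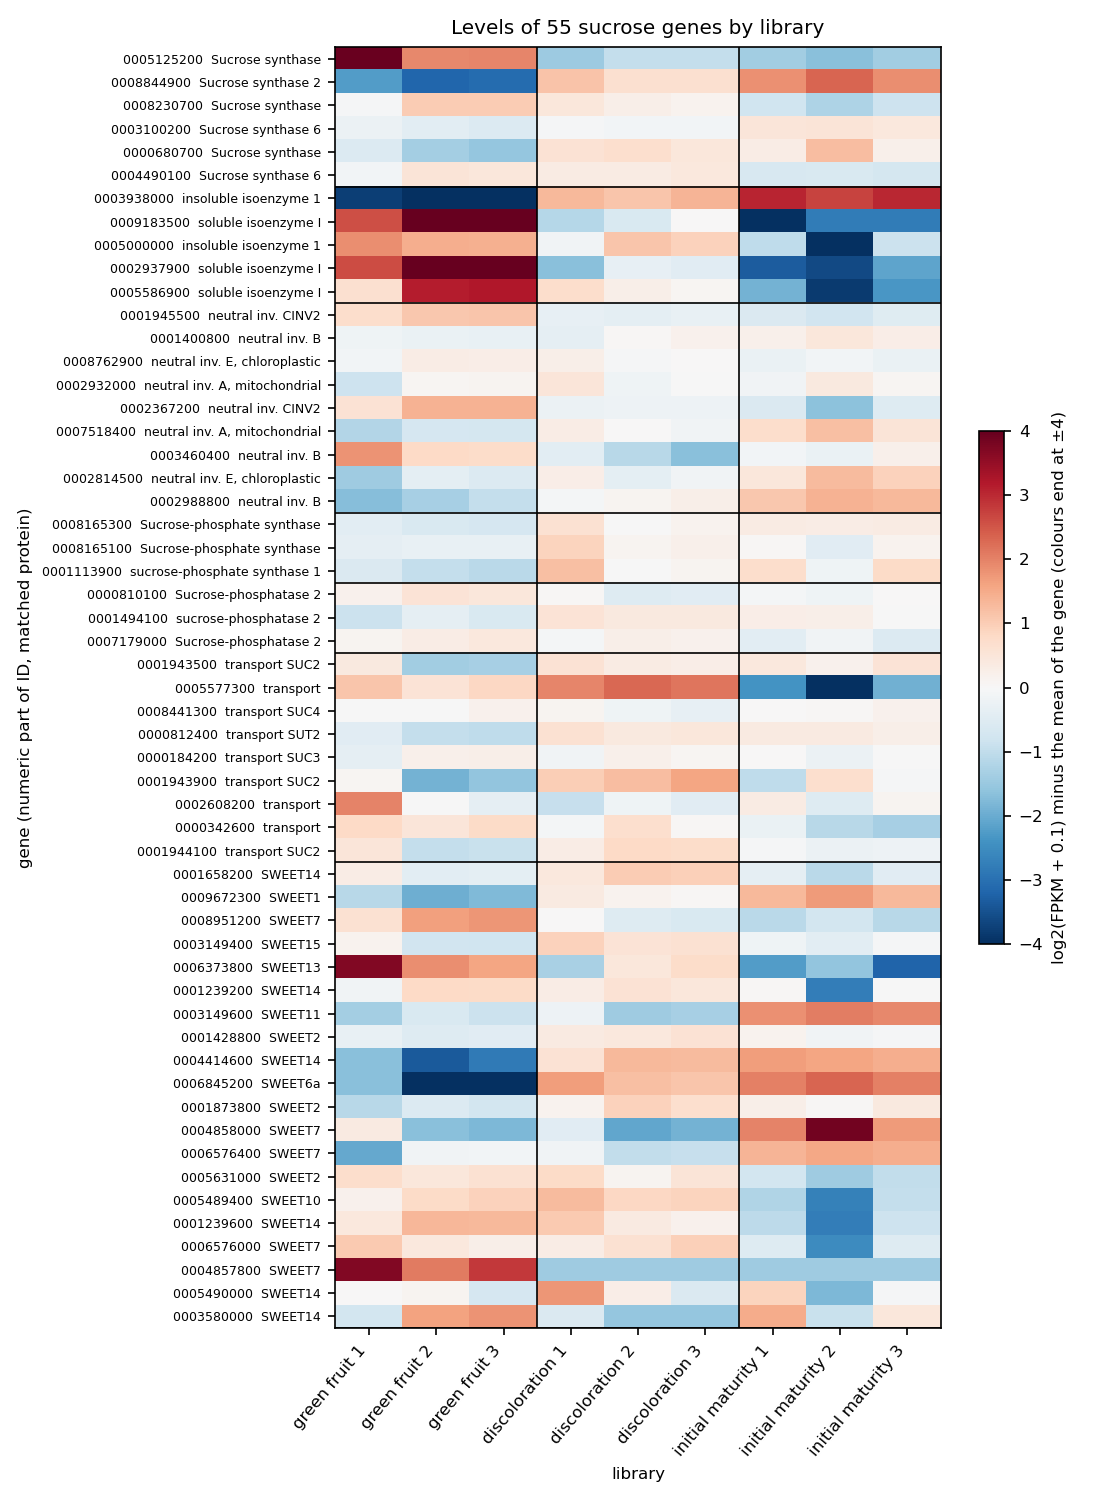
Levels of the 55 tested sucrose genes in each of the 9 libraries. Columns are libraries in stage order, rows are genes grouped by kind (black lines) and ordered by mean level within a kind, and colour is log2(FPKM + 0.1) minus the gene's mean over the 9 libraries. Sucrose synthases and acid invertases hold both genes that are red at green fruit and genes that are red at initial maturity.

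Which sucrose synthase gene was most abundant differed between the stages. FtPinG0005125200.01, the best match of soybean sucrose synthase (chromosome 4, 42622063 to 42627003), had 1541, 379 and 381 TMM-scaled FPKM in green fruit, 36.6, 51.8 and 51.4 in discoloration and 37.5, 30.9 and 37.6 in initial maturity. All 3 green fruit libraries lay above all later ones, and green fruit 1 lay far above green fruit 2 and 3. The log2 fold change was -4.04 ± 0.59 (SE, adjusted p = 0.00094) at discoloration and -4.44 ± 0.60 (SE, adjusted p = 0.00023) at initial maturity, each against green fruit. It was -0.40 ± 0.52 (SE, adjusted p = 0.576) at initial maturity against discoloration. Its share of the summed level of the 7 sucrose synthase genes was 89.0% ± 7.01 in green fruit, 23.8% ± 6.19 in discoloration and 11.6% ± 2.72 in initial maturity (SD, n = 3 each). The authors' deposited table does not call this gene at discoloration against green fruit.

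FtPinG0008844900.01, matching a pea sucrose synthase (SUS2; chromosome 1, 54331613 to 54338020), ran the other way. It had 13.0, 6.80 and 7.16 TMM-scaled FPKM in green fruit, 137, 96.3 and 96.4 in discoloration and 220.4, 310.0 and 226 in initial maturity, and no stage overlapped another. The log2 fold change was 3.61 ± 0.34 (SE, adjusted p = 0.00012) at discoloration against green fruit. It was 4.81 ± 0.36 (SE, adjusted p = 1.2e-05) at initial maturity against green fruit and 1.20 ± 0.31 (SE, adjusted p = 0.0164, or 0.161 with close pairs added) at initial maturity against discoloration. Without discoloration 2 or discoloration 3, the call at initial maturity against discoloration was lost (adjusted p = 0.0733 and 0.0746). Its share of the summed sucrose synthase level was 1.32% ± 0.428 in green fruit, 54.9% ± 6.43 in discoloration and 80.3% ± 3.85 in initial maturity (SD, n = 3 each).

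Another abundant sucrose synthase fell late. FtPinG0008230700.01, best matched by mung bean sucrose synthase, had 25.5, 53.5 and 53.5 TMM-scaled FPKM in green fruit, 35.6, 30.7 and 29.0 in discoloration and 14.9, 11.1 and 14.8 in initial maturity. The initial maturity libraries lay below all others, whereas green fruit 1 lay below the discoloration libraries and green fruit 2 and 3 lay above them. It fell at initial maturity, with log2 fold changes of -1.22 ± 0.28 (SE, adjusted p = 0.01, or 0.0965 with close pairs added) against discoloration and -1.70 ± 0.29 (SE, adjusted p = 0.0008) against green fruit. At discoloration against green fruit it did not pass the test, with -0.47 ± 0.28 (SE, adjusted p = 0.205).

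Of the less abundant sucrose synthases, both matches of Arabidopsis SUS6, an isoform known there from the callose-lined sieve plates of the phloem, were measured at a few TMM-scaled FPKM. FtPinG0003100200.01 had 3.22, 2.83 and 2.58 TMM-scaled FPKM in green fruit, 3.66, 3.53 and 3.51 in discoloration and 5.36, 5.48 and 5.12 in initial maturity, and rose at initial maturity against green fruit (log2 fold change 0.89 ± 0.13 SE, adjusted p = 0.00036), a direction that became lower with library totals only (-0.44, adjusted p = 0.00904). FtPinG0004490100.01 had 1.81, 2.82 and 2.69 TMM-scaled FPKM in green fruit, 2.44, 2.48 and 2.65 in discoloration and 1.20, 1.23 and 1.15 in initial maturity, and fell at initial maturity against green fruit (log2 fold change -1.03 ± 0.20 SE, adjusted p = 0.00189, or 0.0692 with close pairs added). A further soybean sucrose synthase match, FtPinG0000680700.01, had 1.96, 1.09 and 0.951 TMM-scaled FPKM in green fruit, 4.44, 4.76 and 4.07 in discoloration and 3.65, 6.99 and 3.44 in initial maturity, and its log2 fold change at discoloration against green fruit was 1.73 ± 0.34 (SE, adjusted p = 0.00402, or 0.0628 with close pairs added). These 3 genes were named after their values were seen. The seventh, a match of rice SUS5, had 24 counts in all and was not tested. The summed sucrose synthase level was 826.9 ± 658 TMM-scaled FPKM in green fruit, where green fruit 1 held 1587, 199 ± 18.0 in discoloration and 312 ± 46.4 in initial maturity (SD, n = 3 each).

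**Figure D2:**
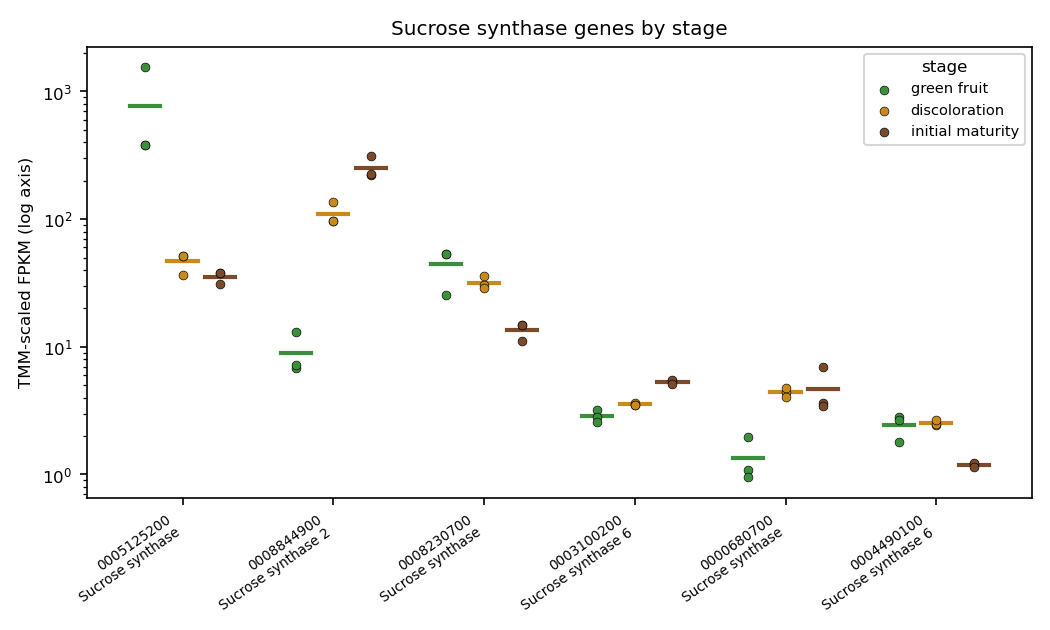
Levels of the 6 tested sucrose synthase genes by stage, in TMM-scaled FPKM on a log axis. Points are libraries and bars are means of 3 libraries. The gene highest at green fruit (share 89.0%) and the gene highest at initial maturity (share 80.3%) cross between the stages.

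Among acid invertases, the most abundant cell wall match rose and the vacuolar matches fell. FtPinG0003938000.01, best matched by carrot insoluble isoenzyme 1, a cell wall invertase that cleaves sucrose outside the cell (chromosome 2, 58760431 to 58764618), had 0.268, 0.152 and 0.131 TMM-scaled FPKM in green fruit, 12.3, 10.7 and 12.8 in discoloration and 41.7, 32.7 and 40.6 in initial maturity. The stages did not overlap in either step. The log2 fold change was 6.02 ± 0.26 (SE, adjusted p = 5.1e-06) at discoloration against green fruit. It was 1.68 ± 0.20 (SE, adjusted p = 0.00058) at initial maturity against discoloration and 7.70 ± 0.28 (SE, adjusted p = 1.1e-06) at initial maturity against green fruit. All 3 calls held with any library left out and with close pairs added together.

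The second tested cell wall invertase, FtPinG0005000000.01 on chromosome 5 (32183828 to 32186236), fell while the first rose. It had 27.0, 20.5 and 20.2 TMM-scaled FPKM in green fruit, 6.65, 15.9 and 14.1 in discoloration and 3.62, 0.176 and 4.05 in initial maturity, with green fruit above the other stages and initial maturity 2 far below initial maturity 1 and 3. Its log2 fold change was -3.11 ± 0.73 (SE, adjusted p = 0.00503) at initial maturity against green fruit. It was -2.22 ± 0.72 (SE, adjusted p = 0.0373, or 0.18 with close pairs added) at initial maturity against discoloration and -0.89 ± 0.66 (SE, adjusted p = 0.319) at discoloration against green fruit. The call at initial maturity against discoloration did not pass without discoloration 2, discoloration 3, initial maturity 1 or initial maturity 3 (adjusted p = 0.112, 0.0981, 0.0671 and 0.0526). The share of the summed cell wall invertase level held by FtPinG0003938000.01 was 0.766% ± 0.177 in green fruit, 49.6% ± 12.9 in discoloration and 92.5% ± 3.80 in initial maturity (SD, n = 3 each). That sum, over 6 genes, was 23.4 ± 3.75 TMM-scaled FPKM in green fruit, 24.9 ± 4.87 in discoloration and 41.6 ± 6.79 in initial maturity, while on the deposited FPKM scale it was 39.7 ± 1.80, 21.6 ± 4.94 and 28.4 ± 6.04, so that its direction against green fruit turns with the scale.

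All 3 tested matches of vacuolar (soluble) invertase, which cleaves stored sucrose and is known from expanding tissues, fell in every comparison, where 19.9%, 20.4% and 32.5% of all genes fell. FtPinG0009183500.01 had 13.1, 46.0 and 49.9 TMM-scaled FPKM in green fruit, 0.901, 1.35 and 2.15 in discoloration and 0.0312, 0.217 and 0.221 in initial maturity, and its log2 fold change was -4.62 ± 0.58 (SE, adjusted p = 0.00044) at discoloration against green fruit. It was -3.22 ± 0.74 (SE, adjusted p = 0.00975, or 0.0662 with close pairs added) at initial maturity against discoloration and -7.84 ± 0.74 (SE, adjusted p = 3.3e-05) at initial maturity against green fruit. The stages did not overlap, and green fruit 1 held less than green fruit 2 and 3. FtPinG0002937900.01 had 12.2, 42.1 and 45 TMM-scaled FPKM in green fruit, 0.524, 1.51 and 1.37 in discoloration and 0.0982, 0.0649 and 0.364 in initial maturity, with log2 fold changes of -4.86 ± 0.62 (SE, adjusted p = 0.00048), -2.69 ± 0.79 (SE, adjusted p = 0.0262, or 0.118 with close pairs added) and -7.54 ± 0.77 (SE, adjusted p = 4.9e-05) in the same order of comparisons. Leaving out discoloration 2, discoloration 3, initial maturity 1 or initial maturity 2 ended the call at initial maturity against discoloration (adjusted p = 0.0789, 0.0707, 0.0839 and 0.096).

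The third, FtPinG0005586900.01, had 6.54, 36.9 and 39.1 TMM-scaled FPKM in green fruit, 6.81, 4.91 and 4.38 in discoloration and 1.03, 0.198 and 0.738 in initial maturity. Green fruit 1 lay within the range of the discoloration libraries, and the initial maturity libraries lay below all others. Its log2 fold change was -2.36 ± 0.62 (SE, adjusted p = 0.0153, or 0.176 with close pairs added) at discoloration against green fruit. It was -3.03 ± 0.72 (SE, adjusted p = 0.0109, or 0.0797 with close pairs added) at initial maturity against discoloration and -5.39 ± 0.76 (SE, adjusted p = 0.00028) at initial maturity against green fruit. Without discoloration 2 or discoloration 3, the call at discoloration against green fruit was lost (adjusted p = 0.0585 and 0.0624). The summed level of the 5 vacuolar invertase genes was 97.1 ± 56.6 TMM-scaled FPKM in green fruit, where green fruit 1 held 31.9 and green fruit 2 and 3 held 125 and 134, 7.98 ± 0.230 in discoloration and 0.987 ± 0.447 in initial maturity (SD, n = 3 each). The other 6 acid invertase genes were not tested, 3 of them with no count. The summed green tissue markers fell over the same stages and lay lowest among green fruit libraries in green fruit 1, like all 3 vacuolar genes, and their part in these falls was not tested.

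Alkaline/neutral invertases, which cleave sucrose in the cytosol or in organelles, changed in both directions. At discoloration against green fruit 2 of 9 rose and 3 fell (22.2% and 33.3%, beside 19.5% and 19.9% of all genes). At initial maturity, 3 rose and 0 fell against discoloration (33.3% and 0%, beside 16.0% and 20.4%), and 4 rose and 3 fell against green fruit (44.4% and 33.3%, beside 28.3% and 32.5%). The 0 falls at initial maturity against discoloration were also 0 with edgeR at an unadjusted p under 0.05 and 0 with DESeq2. The most abundant, FtPinG0001945500.01, best matched by Arabidopsis CINV2, a cytosolic invertase, had 31.0, 40.3 and 41.1 TMM-scaled FPKM in green fruit, 15.1, 14.5 and 15.7 in discoloration and 12.8, 11.2 and 13.7 in initial maturity. Green fruit lay above both later stages without overlap. Its log2 fold change was -1.31 ± 0.16 (SE, adjusted p = 0.00034) at discoloration and -1.57 ± 0.16 (SE, adjusted p = 4.3e-05) at initial maturity, each against green fruit. It was -0.26 ± 0.15 (SE, adjusted p = 0.209) at initial maturity against discoloration.

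FtPinG0001400800.01, matching Arabidopsis invertase B, had 14.7, 13.9 and 13.4 TMM-scaled FPKM in green fruit, 13.0, 17.2 and 18.6 in discoloration and 19.2, 22.6 and 19.8 in initial maturity. Its log2 fold change at initial maturity against green fruit was 0.55 ± 0.16 (SE, adjusted p = 0.0138, or 0.127 with close pairs added), a direction that turned with library totals only (-0.78, adjusted p = 0.00217). The call at initial maturity against green fruit did not pass without green fruit 3 (adjusted p = 0.0511). FtPinG0008762900.01, matching the chloroplast invertase E of Arabidopsis, had 10.4, 13.8 and 13.4 TMM-scaled FPKM in green fruit, 13.1, 10.9 and 11.3 in discoloration and 9.34, 10.3 and 9.26 in initial maturity and passed no test, with -0.38 ± 0.15 (SE, adjusted p = 0.0548) at initial maturity against green fruit. FtPinG0002988800.01, another match of invertase B with the lowest mean level of the 9, had 0.259, 0.360 and 0.496 TMM-scaled FPKM in green fruit, 0.991, 1.15 and 1.26 in discoloration and 2.32, 2.94 and 2.73 in initial maturity. It rose in each comparison without overlap, and its log2 fold change was 1.60 ± 0.30 (SE, adjusted p = 0.00284, or 0.0579 with close pairs added and 0.127 with library totals only, at a log2 value of 0.60) at discoloration against green fruit. Its change was 1.23 ± 0.28 (SE, adjusted p = 0.00978, or 0.112 with close pairs added and 0.0604 with library totals only, at a log2 value of 0.87) at initial maturity against discoloration and 2.83 ± 0.30 (SE, adjusted p = 5.9e-05) at initial maturity against green fruit.

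**Figure D3:**
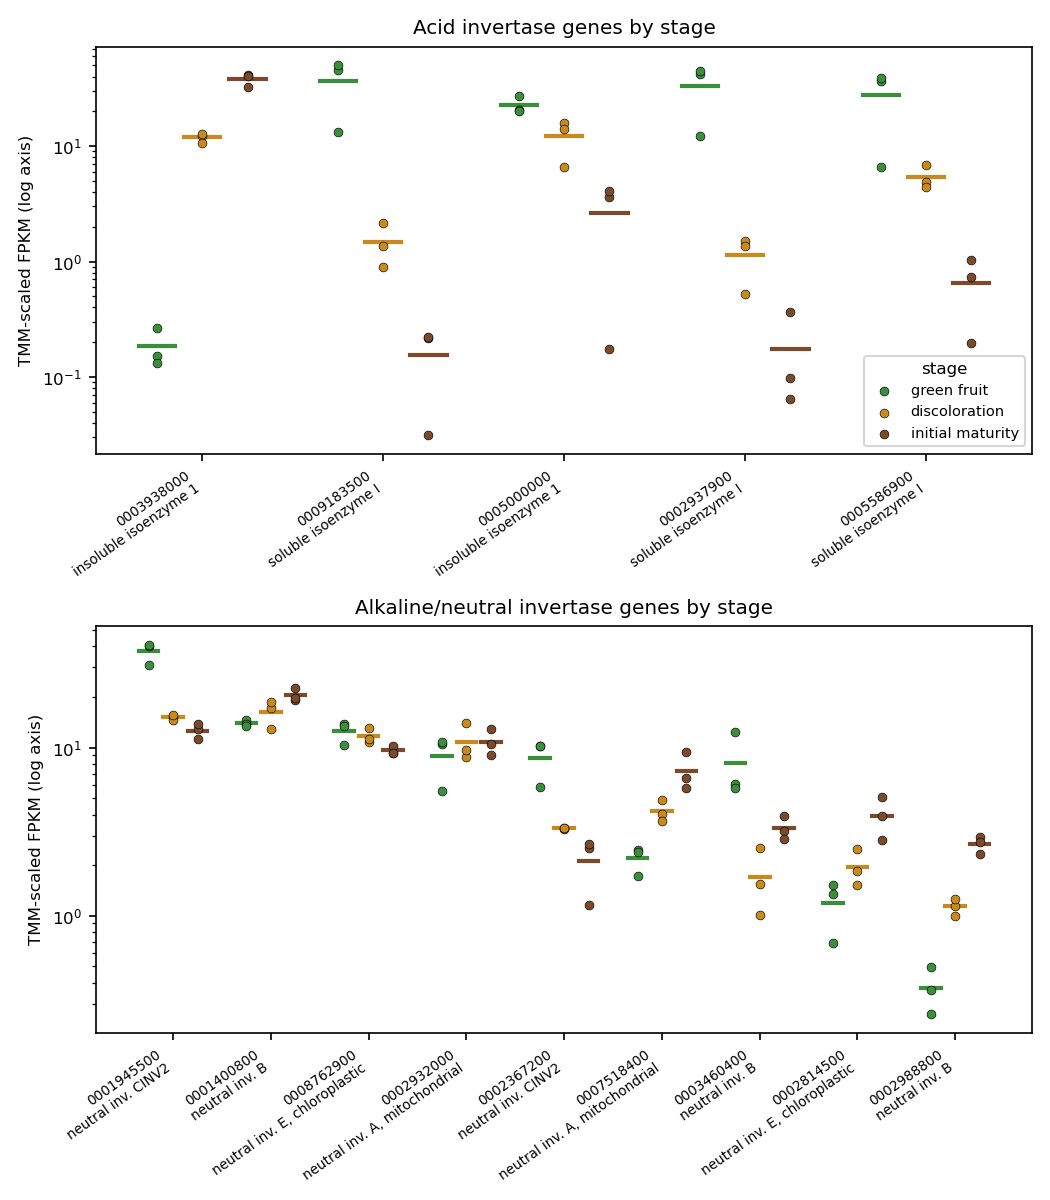
Levels of the 5 tested acid invertases (upper panel) and the 9 tested alkaline/neutral invertases (lower panel) by stage, in TMM-scaled FPKM on a log axis. Points are libraries and bars are means of 3 libraries. Among acid invertases FtPinG0003938000.01 is higher at each later stage and the other 4 have their lowest means at initial maturity.

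For sucrose synthesis, all 3 sucrose-phosphate synthase models passed the test as higher at discoloration against green fruit on the TMM scale, where 19.5% of all genes were called higher. With library totals only, the direction of the first pair described here turned and the third did not pass. With close pairs added together, none of the 3 passed. The authors' deposited table calls none of them in this comparison. This enzyme joins UDP-glucose and fructose-6-phosphate and is the regulated step of sucrose synthesis. FtPinG0008165300.01 and FtPinG0008165100.01 are models on the plus strand of chromosome 6 (6583994 to 6584712 and 6578968 to 6583470) that lie 523 bases apart and both match spinach sucrose-phosphate synthase. Whether they are pieces of a single gene was not tested. FtPinG0008165300.01 had 21.1, 18.2 and 17.4 TMM-scaled FPKM in green fruit, 42.9, 27.6 and 31.0 in discoloration and 35.1, 34.7 and 35.3 in initial maturity, and FtPinG0008165100.01 had 9.41, 9.77 and 9.71 TMM-scaled FPKM in green fruit, 22.5, 12.9 and 13.9 in discoloration and 12.4, 8.71 and 13.3 in initial maturity. In both, discoloration 1 was the highest library. FtPinG0008165300.01 changed on the log2 scale by 0.84 ± 0.18 (SE, adjusted p = 0.00604, or 0.0854 with close pairs added) at discoloration against green fruit (-0.15 with library totals only) and 0.89 ± 0.18 (SE, adjusted p = 0.00233, or 0.0527 with close pairs added) at initial maturity against green fruit (-0.44, adjusted p = 0.0367, with library totals only). That of FtPinG0008165100.01 was 0.77 ± 0.24 (SE, adjusted p = 0.0276, or 0.128 with close pairs added) at discoloration against green fruit (-0.23). Leaving out discoloration 1, green fruit 2 or green fruit 3 ended the call at discoloration against green fruit (adjusted p = 0.0872, 0.0684 and 0.0687).

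FtPinG0001113900.01, matching a citrus sucrose-phosphate synthase, had 2.74, 2.09 and 1.88 TMM-scaled FPKM in green fruit, 9.70, 4.10 and 4.40 in discoloration and 6.71, 3.68 and 7.03 in initial maturity. Later libraries lay above all green fruit libraries. The log2 fold change was 1.44 ± 0.37 (SE, adjusted p = 0.0135, or 0.081 with close pairs added and 0.266 with library totals only, at a log2 value of 0.45) at discoloration and 1.38 ± 0.37 (SE, adjusted p = 0.00991, or 0.0961 with close pairs added and 0.854 with library totals only, at a log2 value of 0.07) at initial maturity, each against green fruit. The summed sucrose-phosphate synthase level was 56.4 ± 16.4 TMM-scaled FPKM at discoloration, against 30.7 ± 2.20 at green fruit, a log2 ratio of 0.87. On the deposited FPKM scale the same ratio was -0.12.

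Sucrose-phosphatase, which removes the phosphate in the last step of sucrose synthesis, had 3 tested genes that did not move together. FtPinG0000810100.01, matching tobacco SPP2, had 23.1, 29.6 and 27.8 TMM-scaled FPKM in green fruit, 21.0, 14.0 and 14.8 in discoloration and 19.1, 17.8 and 20.7 in initial maturity, and its log2 fold change was -0.69 ± 0.18 (SE, adjusted p = 0.0156, or 0.256 with close pairs added) at discoloration and -0.48 ± 0.18 (SE, adjusted p = 0.0458, or 0.258 with close pairs added) at initial maturity, each against green fruit. Without discoloration 2, discoloration 3 or green fruit 2, the call at discoloration against green fruit was lost (adjusted p = 0.0699, 0.0713 and 0.0563). The call at initial maturity against green fruit did not pass without discoloration 2, discoloration 3, green fruit 2, green fruit 3, initial maturity 1, initial maturity 2 or initial maturity 3 (adjusted p between 0.0546 and 0.137). FtPinG0001494100.01, matching Arabidopsis SPP2, had 4.88, 6.98 and 5.85 TMM-scaled FPKM in green fruit, 13.2, 11.9 and 11.8 in discoloration and 10.7, 10.6 and 8.79 in initial maturity. It was higher at discoloration (log2 fold change 1.06 ± 0.17 SE, adjusted p = 0.00165, or 0.826 with library totals only, at a log2 value of 0.05) and at initial maturity (log2 fold change 0.76 ± 0.17 SE, adjusted p = 0.00422, or 0.0518 with close pairs added) against green fruit, and at initial maturity it was lower (-0.59, adjusted p = 0.0284) with library totals only. FtPinG0007179000.01, also matched by tobacco SPP2, had 6.89, 7.91 and 8.49 TMM-scaled FPKM in green fruit, 5.99, 7.50 and 7.15 in discoloration and 4.69, 5.73 and 4.38 in initial maturity, and fell at initial maturity against green fruit (log2 fold change -0.65 ± 0.17 SE, adjusted p = 0.00758, or 0.158 with close pairs added).

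Among sucrose transport proteins 2 of 9 tested rose and 0 fell at discoloration against green fruit (22.2% and 0%, beside 19.5% and 19.9% of all genes). At initial maturity, 0 rose and 2 fell against discoloration (0% and 22.2%, beside 16.0% and 20.4%), and 1 rose and 2 fell against green fruit (11.1% and 22.2%, beside 28.3% and 32.5%). With edgeR at an unadjusted p under 0.05 and with DESeq2, the 0 falls at discoloration against green fruit became 1 and 1, and the 0 rises at initial maturity against discoloration stayed at 0 and 0. FtPinG0005577300.01, best matched by the spinach sucrose carrier, a proton-coupled importer (chromosome 2, 17155607 to 17157642), had 61.9, 41.4 and 51.0 TMM-scaled FPKM in green fruit, 110.1, 139.9 and 127 in discoloration and 5.40, 1.09 and 7.46 in initial maturity. The discoloration libraries were highest and the initial maturity libraries lowest, with no overlap. Its log2 fold change was -4.76 ± 0.58 (SE, adjusted p = 0.00063) at initial maturity against discoloration and -3.47 ± 0.55 (SE, adjusted p = 0.00056) at initial maturity against green fruit. It was 1.29 ± 0.50 (SE, adjusted p = 0.0671) at discoloration against green fruit, which did not pass. The authors' deposited table does call this gene higher at discoloration against green fruit. Its share of the summed sucrose transport protein level was 39.8% ± 5.45 in green fruit, 48.7% ± 5.10 in discoloration and 3.34% ± 2.17 in initial maturity (SD, n = 3 each).

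FtPinG0001943500.01, best matched by Arabidopsis SUC2, the carrier that loads sucrose into the phloem of leaves, had the highest mean level of the 15. It had 79.7, 23.5 and 24.5 TMM-scaled FPKM in green fruit, 92.2, 76.4 and 74.4 in discoloration and 82.2, 69.6 and 89.6 in initial maturity. Green fruit 1 lay among the later libraries and green fruit 2 and 3 lay below all of them. No comparison passed the test, with 0.93 ± 0.43 (SE, adjusted p = 0.116) at discoloration and 0.92 ± 0.43 (SE, adjusted p = 0.0913) at initial maturity, each against green fruit, and -0.01 ± 0.43 (SE, adjusted p = 0.99) at initial maturity against discoloration. The phloem marker sum was higher at both later stages than at green fruit, with no overlap, and its part in the level of phloem genes was not tested.

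Levels of FtPinG0008441300.01, matching Arabidopsis SUC4, a carrier of the vacuolar membrane, were close in all libraries, with 16.8, 17.0 and 19.3 TMM-scaled FPKM in green fruit, 18.7, 15.1 and 13.8 in discoloration and 17.5, 17.6 and 19.4 in initial maturity. None of its comparisons passed, and the log2 fold change was 0.04 ± 0.15 (SE, adjusted p = 0.844) at initial maturity against green fruit. FtPinG0001943900.01, matching SUC2, had 1.48, 0.303 and 0.402 TMM-scaled FPKM in green fruit, 2.88, 3.42 and 4.42 in discoloration and 0.650, 2.28 and 1.37 in initial maturity, and its log2 fold change at discoloration against green fruit was 2.31 ± 0.63 (SE, adjusted p = 0.0169, or 0.142 with close pairs added). Leaving out discoloration 3, green fruit 2 or green fruit 3 ended the call at discoloration against green fruit (adjusted p = 0.0572, 0.0507 and 0.0574). FtPinG0000812400.01, matching rice SUT2 and named after its values were seen, had 11.1, 7.87 and 7.51 TMM-scaled FPKM in green fruit, 23.5, 19.9 and 20.8 in discoloration and 19.6, 19.8 and 18.2 in initial maturity. It was higher at discoloration (log2 fold change 1.28 ± 0.17 SE, adjusted p = 0.00066, or 0.065 with library totals only, at a log2 value of 0.31) and at initial maturity (log2 fold change 1.12 ± 0.17 SE, adjusted p = 0.00048) against green fruit, and at initial maturity it was lower (-0.20) with library totals only. The summed sucrose transport protein level was 133 ± 43.7 TMM-scaled FPKM in green fruit, 258 ± 7.78 in discoloration and 133 ± 13.8 in initial maturity (SD, n = 3 each). On the deposited FPKM scale it was 223 ± 45.9, 222.9 ± 12.0 and 90.7 ± 13.6, so that the higher sum at discoloration against green fruit is seen on the TMM scale and not on that scale.

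SWEET genes were the most numerous kind and moved in both directions. Of 20 tested, 7 rose and 4 fell at discoloration against green fruit (35% and 20%, beside 19.5% and 19.9% of all genes). Against discoloration, 4 rose and 8 fell at initial maturity (20% and 40%, beside 16.0% and 20.4%). Against green fruit, 8 rose and 7 fell at initial maturity (40% and 35%, beside 28.3% and 32.5%). FtPinG0001658200.01, best matched by rice SWEET14, a sucrose carrier there, had the highest mean level. It had 162, 97.7 and 100.5 TMM-scaled FPKM in green fruit, 177, 265 and 254 in discoloration and 101, 61.3 and 96.1 in initial maturity, and its log2 fold change was -1.43 ± 0.29 (SE, adjusted p = 0.00567, or 0.0877 with close pairs added) at initial maturity against discoloration. At discoloration against green fruit its log2 fold change was 0.95 ± 0.29 (SE, adjusted p = 0.0275, or 0.292 with close pairs added), and -0.00088 with library totals only. Without discoloration 2, discoloration 3, green fruit 2 or green fruit 3, the call at discoloration against green fruit was lost (adjusted p = 0.0933, 0.0847, 0.0934 and 0.0911). FtPinG0009672300.01, best matched by Arabidopsis SWEET1, a glucose carrier of the plasma membrane, had 35.9, 20.3 and 23.0 TMM-scaled FPKM in green fruit, 100.5, 86.2 and 81.3 in discoloration and 193, 254 and 191 in initial maturity. It rose in each comparison without overlap, and its log2 fold change was 1.76 ± 0.25 (SE, adjusted p = 0.00078) at discoloration against green fruit. Its change was 1.25 ± 0.24 (SE, adjusted p = 0.00456, or 0.0801 with close pairs added) at initial maturity against discoloration and 3.01 ± 0.26 (SE, adjusted p = 2.0e-05) at initial maturity against green fruit.

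As a share of the summed SWEET level, the SWEET14 match FtPinG0001658200.01 had 31.0% ± 4.37 in green fruit, 45.7% ± 6.97 in discoloration and 18.0% ± 5.12 in initial maturity (SD, n = 3 each). The SWEET1 match FtPinG0009672300.01 had 6.80% ± 1.05, 17.8% ± 3.08 and 44.0% ± 5.42. The sum over all 33 SWEET genes was 382.5 ± 59.4 TMM-scaled FPKM in green fruit, 504 ± 30.4 in discoloration and 482 ± 21.2 in initial maturity, but 649 ± 23.9, 437 ± 42.4 and 326 ± 9.03 on the deposited FPKM scale.

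Several SWEETs fell over the stages. FtPinG0008951200.01, matching Arabidopsis SWEET7, had 51.0, 104 and 112 TMM-scaled FPKM in green fruit, 33.9, 23.2 and 21.8 in discoloration and 15.5, 20.2 and 15.3 in initial maturity, with log2 fold changes of -1.76 ± 0.31 (SE, adjusted p = 0.00213, or 0.0643 with close pairs added) at discoloration and -2.39 ± 0.31 (SE, adjusted p = 0.00019) at initial maturity, each against green fruit. FtPinG0006373800.01, matching rice SWEET13, had 109, 30.5 and 25.2 TMM-scaled FPKM in green fruit, 3.36, 11.4 and 13.9 in discoloration and 1.69, 2.75 and 0.821 in initial maturity, and green fruit 1 held the most. Its log2 fold change was -4.96 ± 0.79 (SE, adjusted p = 0.00058) at initial maturity against green fruit. It was -2.52 ± 0.68 (SE, adjusted p = 0.0164, or 0.0591 with close pairs added) at discoloration against green fruit and -2.44 ± 0.75 (SE, adjusted p = 0.0313, or 0.172 with close pairs added) at initial maturity against discoloration. The call at discoloration against green fruit did not pass without discoloration 1 (adjusted p = 0.0515). Leaving out discoloration 2, discoloration 3, initial maturity 1, initial maturity 2 or initial maturity 3 ended the call at initial maturity against discoloration (adjusted p between 0.0537 and 0.0994). FtPinG0005489400.01, matching Arabidopsis SWEET10, had 2.56, 3.90 and 4.43 TMM-scaled FPKM in green fruit, 5.64, 4.13 and 4.30 in discoloration and 0.922, 0.261 and 1.13 in initial maturity. It was lower at initial maturity, with log2 fold changes of -2.60 ± 0.45 (SE, adjusted p = 0.00266, or 0.051 with close pairs added) against discoloration and -2.23 ± 0.44 (SE, adjusted p = 0.002) against green fruit.

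Others were highest late. FtPinG0003149600.01, matching Arabidopsis SWEET11, which exports sucrose to the embryo in seeds of that plant, had 4.40, 7.36 and 6.30 TMM-scaled FPKM in green fruit, 9.79, 4.17 and 4.48 in discoloration and 40.7, 47.2 and 43.6 in initial maturity. The initial maturity libraries lay above all others, while green fruit and discoloration overlapped. The log2 fold change was 2.84 ± 0.34 (SE, adjusted p = 0.00057) at initial maturity against discoloration. It was 2.86 ± 0.33 (SE, adjusted p = 0.0001) at initial maturity against green fruit and 0.02 ± 0.32 (SE, adjusted p = 0.961) at discoloration against green fruit. FtPinG0004414600.01, another rice SWEET14 match, had 1.87, 0.521 and 0.788 TMM-scaled FPKM in green fruit, 9.39, 15.6 and 15.1 in discoloration and 20.3, 19.0 and 17.5 in initial maturity, with 3.67 ± 0.42 (SE, adjusted p = 0.0003) at discoloration and 4.17 ± 0.43 (SE, adjusted p = 5.3e-05) at initial maturity, each against green fruit. FtPinG0006845200.01, matching rice SWEET6a, had 0.725, 0.0283 and 0.0354 TMM-scaled FPKM in green fruit, 8.36, 5.98 and 5.64 in discoloration and 10.7, 13.2 and 10.5 in initial maturity, with 4.72 ± 0.78 (SE, adjusted p = 0.00175) and 5.50 ± 0.80 (SE, adjusted p = 0.00033) in the same comparisons, and green fruit 1 held more than green fruit 2 and 3.

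Matches of SWEET7 included both directions. FtPinG0004858000.01 had 2.69, 0.587 and 0.529 TMM-scaled FPKM in green fruit, 1.47, 0.409 and 0.484 in discoloration and 8.43, 31.2 and 6.89 in initial maturity, with initial maturity 2 far above initial maturity 1 and 3, and its log2 fold change was 4.31 ± 0.90 (SE, adjusted p = 0.0061, or 0.0562 with close pairs added) at initial maturity against discoloration and 3.63 ± 0.83 (SE, adjusted p = 0.00431) at initial maturity against green fruit. FtPinG0006576400.01 had 0.657, 2.74 and 2.79 TMM-scaled FPKM in green fruit, 2.73, 1.46 and 1.54 in discoloration and 7.97, 8.98 and 8.49 in initial maturity, with 2.15 ± 0.49 (SE, adjusted p = 0.00929, or 0.111 with close pairs added) at initial maturity against discoloration and 2.03 ± 0.48 (SE, adjusted p = 0.00496, or 0.261 with library totals only, at a log2 value of 0.64) at initial maturity against green fruit. FtPinG0004857800.01 was counted at green fruit only, with 3.44, 1.05 and 1.82 TMM-scaled FPKM in green fruit and 0 in all 6 later libraries. Its green fruit mean was 2.10 TMM-scaled FPKM. That mean was 39.9-fold a floor of 3 counts over the stage at discoloration, and 29.6-fold such a floor at initial maturity. These ratios leave out the spread between green fruit libraries, and the lowest of these, at 1.05, would give smaller ones. FtPinG0003580000.01, a rice SWEET14 match at the low end of the tested genes, had 0.0781, 0.792 and 0.918 TMM-scaled FPKM in green fruit, 0.0966, 0 and 0 in discoloration and 0.723, 0.0598 and 0.305 in initial maturity, with -4.13 ± 1.34 (SE, adjusted p = 0.035, or 0.211 with close pairs added) at discoloration against green fruit. Without discoloration 1, discoloration 2, discoloration 3, green fruit 2, green fruit 3 or initial maturity 3, the call at discoloration against green fruit was lost (adjusted p between 0.0532 and 0.116).

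**Figure D4:**
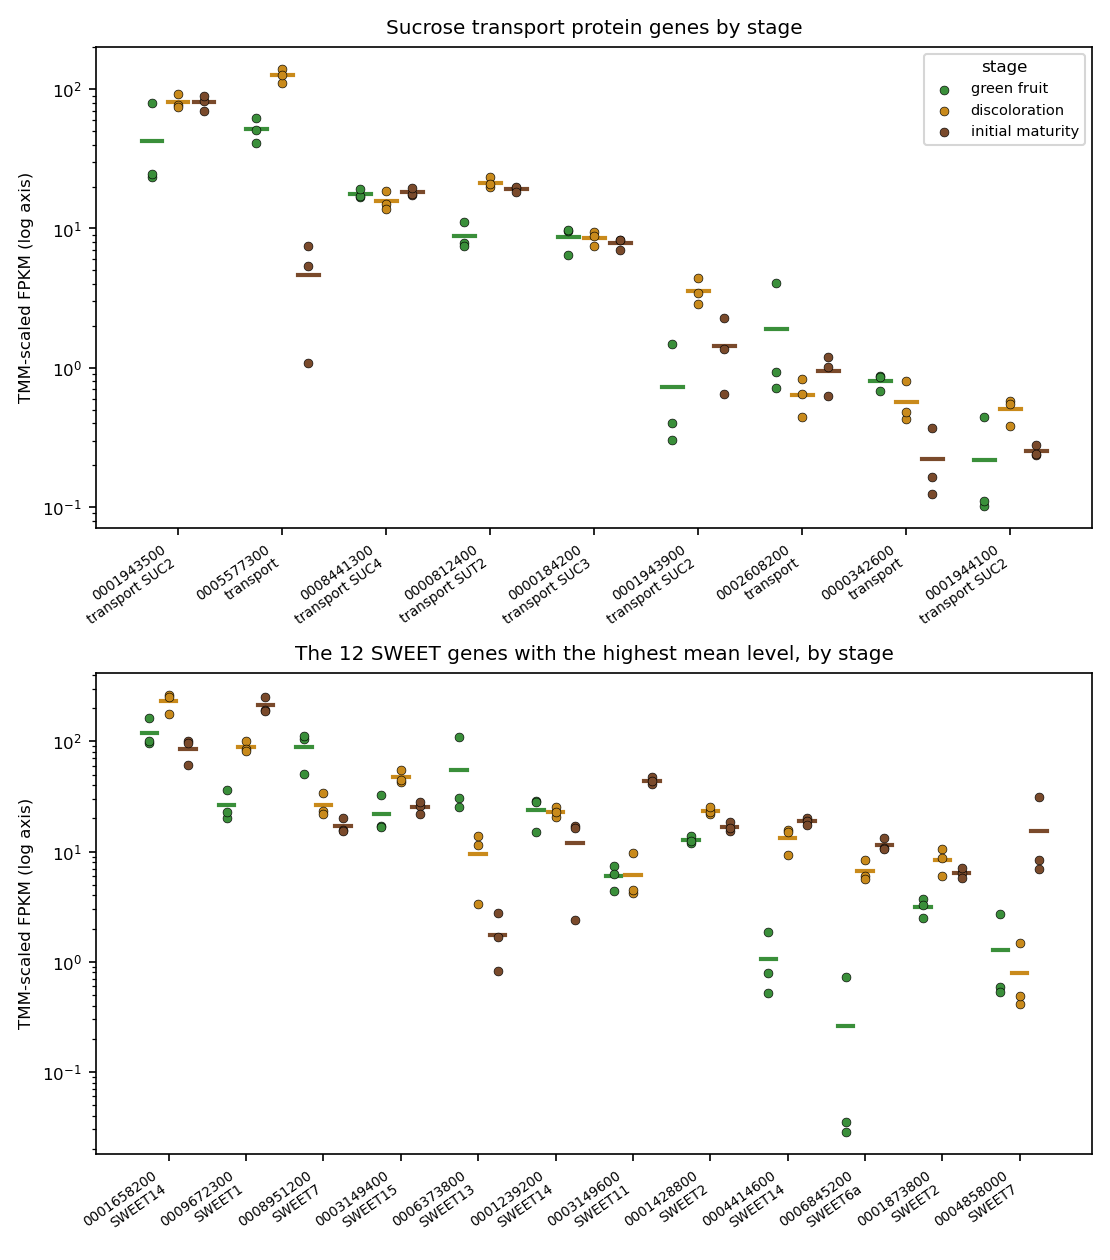
Levels of the 9 tested sucrose transport proteins (upper panel) and of the 12 SWEET genes with the highest mean level (lower panel) by stage, in TMM-scaled FPKM on a log axis. Points are libraries and bars are means of 3 libraries. The spinach carrier match FtPinG0005577300.01 lies between 110.1 and 139.9 at discoloration and between 1.09 and 7.46 at initial maturity.

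Some sucrose genes lie near another of their kind. Within 100 kb of each other, 31 of the 82 formed 12 groups, and 30 did so within 50 kb. Gaps between members of a group, called neighbours here, were 523 to 77634 bases. The gap of 523 bases is that of the sucrose-phosphate synthase models described above. How often other genes group in this way was not tested. Of the 31, 19 were tested, and of the 51 elsewhere 36. Mean levels of neighbours lay close in some groups, such as 18.7 TMM-scaled FPKM for FtPinG0003149600.01 and 31.7 for FtPinG0003149400.01, and far apart in others. The 3 neighbouring SUC2 matches on chromosome 3 (43700540 to 43748064) had means over the 9 libraries of 68.0, 1.91 and 0.324 TMM-scaled FPKM for FtPinG0001943500.01, FtPinG0001943900.01 and FtPinG0001944100.01. The cell wall invertase FtPinG0003938000.01 has a neighbouring model matched by the same carrot enzyme, FtPinG0003936800.01, that had no count in any library.

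Neighbours could also move in opposite directions. Of the 4 SWEET7 matches on chromosome 3 (12057600 to 12167352), FtPinG0008951200.01 and FtPinG0004857800.01 fell at initial maturity against green fruit, FtPinG0004858000.01 rose, and FtPinG0004857200.01 had 5 counts in all. On chromosome 1 (11160938 to 11190542) the SWEET11 match FtPinG0003149600.01 rose at initial maturity against discoloration, and its neighbour FtPinG0003149400.01, a match of Arabidopsis SWEET15, another sucrose exporter of that plant's seeds, had 32.4, 17.1 and 16.9 TMM-scaled FPKM in green fruit, 55.1, 42.9 and 44.4 in discoloration and 26.1, 21.8 and 28.4 in initial maturity. This neighbour rose at discoloration against green fruit (log2 fold change 1.10 ± 0.26 SE, adjusted p = 0.00937, or 0.114 with close pairs added and 0.544 with library totals only, at a log2 value of 0.15) and fell at initial maturity against discoloration (log2 fold change -0.90 ± 0.26 SE, adjusted p = 0.0252, or 0.126 with close pairs added). The call at initial maturity against discoloration did not pass without discoloration 1, discoloration 2, discoloration 3, initial maturity 1, initial maturity 2 or initial maturity 3 (adjusted p between 0.05 and 0.0823). These groups were chosen after their values were seen. How reads with several matching genes were counted is not known from the labels or headers, which leaves values of near-identical neighbours uncertain.

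**Figure D5:**
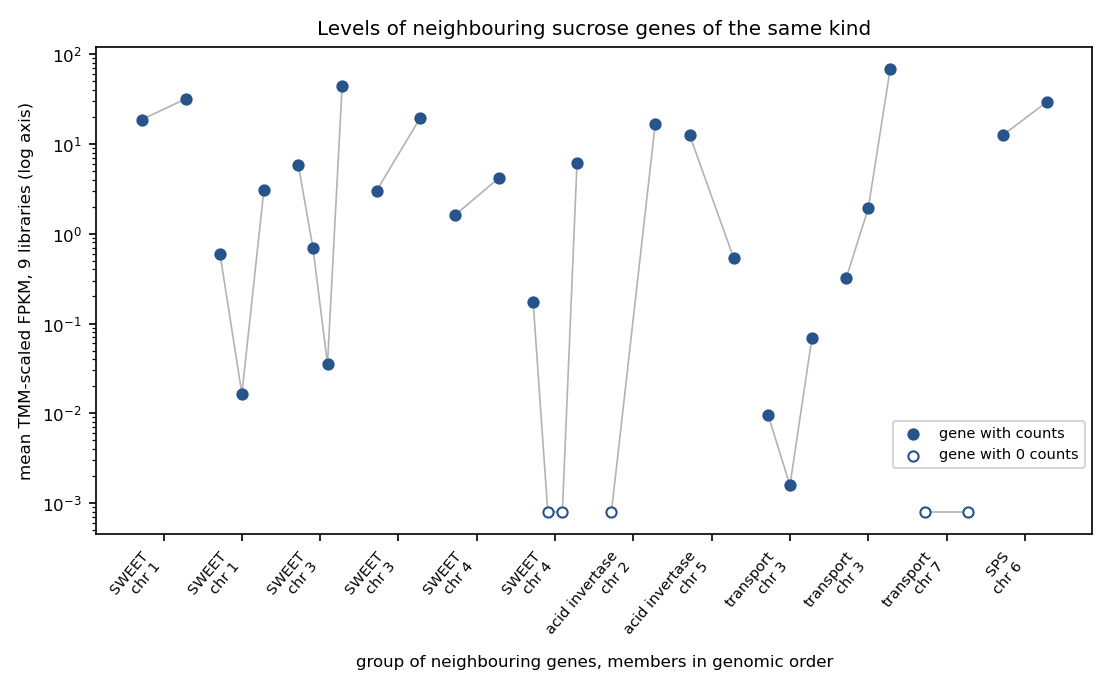
Mean level over the 9 libraries, in TMM-scaled FPKM on a log axis, of sucrose genes lying within 100 kb of another of their kind. Each of the 12 groups on the horizontal axis shows its members in genomic order, joined by a line, and open circles at the lower edge are genes with no count. The 3 SUC2 matches span 0.324 to 68.0.

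The genes that use the products of sucrose cleavage, or that block invertase, were taken as a list of 57 by name, and 37 were tested. Of these, 9 rose and 16 fell at discoloration against green fruit (24.3% and 43.2%, beside 19.5% and 19.9% of all genes). At initial maturity, 5 rose and 9 fell against discoloration (13.5% and 24.3%, beside 16.0% and 20.4%), and 10 rose and 16 fell against green fruit (27.0% and 43.2%, beside 28.3% and 32.5%). With close pairs added together, 1 rose and 6 fell at discoloration against green fruit, and 4 rose at initial maturity against green fruit. Of the 24572 genes then tested, 1717 rose and 1160 fell, and 4095 rose, in these comparisons. The median log2 fold change of the 37 was -0.47 at discoloration against green fruit, -0.20 at initial maturity against discoloration and -0.31 at initial maturity against green fruit, where that of all genes was -0.04, -0.02 and -0.06.

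By enzyme, the UDP-glucose pyrophosphorylase list, which includes UDP-sugar pyrophosphorylases and turns the UDP-glucose of sucrose synthase into glucose-1-phosphate, had 1 gene that rose and 3 that fell of 4 tested at initial maturity against green fruit, a comparison in which 28.3% of all genes rose and 32.5% fell. ADP-glucose pyrophosphorylase, the first committed step of starch synthesis, had 1 that rose and 3 that fell of 6. Fructokinases, which phosphorylate the fructose released, had 3 that rose and 3 that fell of 9 (33.3% each), and hexokinases, matched by name with a ketohexokinase among them, had 3 that rose and 2 that fell of 7. Glucose-6-phosphate isomerases had 1 that rose and 2 that fell of 3, and phosphoglucomutases 1 that rose and 1 that fell of 4. Invertase inhibitors had 0 that rose and 2 that fell of 4, and the 0 was the same with edgeR at an unadjusted p under 0.05 and with DESeq2. With library totals only, the risen UDP-sugar pyrophosphorylase FtPinG0009678200.01 and hexokinases FtPinG0005906200.01 and FtPinG0006867700.01 passed as lower (log2 fold changes -0.83, -0.75 and -0.50). So did the risen isomerase FtPinG0007955500.01 and phosphoglucomutase FtPinG0007255700.01 (-0.83 and -0.85). The risen fructokinases FtPinG0008781100.01 and FtPinG0009372700.01 turned lower without passing (-0.30 and -0.45). The most abundant inhibitor match, FtPinG0009074800.01, named after its values were seen, had 393, 169.6 and 167 TMM-scaled FPKM in green fruit, 185, 247 and 261 in discoloration and 211, 243 and 207 in initial maturity, and passed no test, with -0.14 ± 0.33 (SE, adjusted p = 0.727) at initial maturity against green fruit.

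In the authors' deposited table, 21 sucrose genes were called at discoloration against green fruit, 14 higher and 7 lower at discoloration. Of these, 20 were also called here in the same direction, 95.2% of the authors' calls and 66.7% of the 30 here. The remaining gene was the spinach carrier match FtPinG0005577300.01, higher at discoloration in the authors' table. The authors' deposited table called 26 at initial maturity against discoloration, of which 23 were called here, 88.5% of each list. The authors' deposited table called 28 at initial maturity against green fruit, and all 28 were among the 41 called here (68.3%).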

How the data were processed

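RNA of Tartary buckwheat seeds at 3 stages, 3 libraries each, was sequenced with the Illumina TruSeq kit, which does not mark strand, so overlapping genes on opposite strands cannot be told apart. The submitters' processing notes list Bowtie2 2.0.6 and TopHat2 2.0.12. The genome build, annotation and read counter were not given in the sources used here. Positions come from the deposited descriptions of the genes.

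Raw read counts for each gene were deposited by the authors, per the file headers. The deposited FPKM values equalled counts scaled to gene length and library total in 90.8% of 224086 values above 0, within a relative tolerance of 0.001, so those values carry no correction for composition. The others differed for a reason the headers do not give. The vacuolar invertase sum in discoloration 1 was 9.98 deposited and 8.23 TMM-scaled, with a TMM factor of 0.826. Scaling alone would make the deposited sum the lower. The authors' deposited gene table also gives adjusted p-values and calls of up or down for the earlier against the later stage, turned round here. Its test is not known from the labels or headers. Deposited variant tables give genotype calls, with a number after each call that the file headers do not explain, and hold 9 columns each that match no sample here and were not used.

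Counts were tested with edgeR 4.0.16 in R 4.3.3 (TMM scaling, filterByExpr with a minimum count of 10, glmQLFit and glmQLFTest). All 9 libraries entered 1 fit with stage as its only term, and the filter removed 10300 genes. Benjamini-Hochberg adjustment was over 23631 genes with a threshold of 0.05, and "rose", "fell" and "called" mean past it. Each SE is the log2 fold change over the square root of its F statistic and restates that test. The common biological coefficient of variation was 0.289. p-values measure the spread between these libraries. The procedure was also run on simulated counts, and no call given here rests on that run. DESeq2 1.42.0, other scalings, no filter, a replicate block, leaving out libraries and adding close pairs were the alternatives.

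The members, lists and tests were chosen with earlier results of these data known. Genes were named by rule: the 3 highest mean levels of each kind, and, among called members of each comparison, the 6 with the highest and the 6 with the lowest log2 fold change. Others are said to have been named after their values were seen. With 3 libraries a stage, no exact test of a single value can go below p = 0.1, so single sums and shares are given with SD and no test. Whether library numbers pair the stages could not be decided (see how the results depend on the processing).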

Additional observations from a re-analysis of the deposited data

How the results depend on the processing

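Of 65 called log2 fold changes of the 34 genes named by rule, all 65 kept their direction and side of the threshold with DESeq2, with DESeq2's size factors, without the low-count filter and with the libraries that stand apart left out, and 52 did so in all 9 fits that leave out a library. The fit without the libraries that stand apart keeps only the close pairs. It called 17730 of 23973 genes at discoloration against green fruit. At initial maturity it called 16195 against discoloration and 19353 against green fruit. With so many genes called, that fit could hardly end a call and is a weak check of the 65. With close pairs added together 35 did, and with library totals only 53. Counts of called sucrose genes at discoloration against green fruit, 18 higher and 12 lower, became 7 and 27 with library totals only, 7 and 6 with close pairs added, and 20 lower without the libraries standing apart. Those of all genes, 4615 and 4711 of 23631, became 1832 and 16127 of 23631, 1717 and 1160 of 24572, and 8858 and 8872 of 23973. For initial maturity against discoloration, 10 higher and 16 lower became 6 higher with library totals only, 2 and 1 with close pairs added, and 19 and 27 without the libraries standing apart. All genes went from 3771 and 4830 to 1886 and 7192, 482 and 1181, and 7812 and 8383, over the same numbers tested. Between initial maturity and green fruit, 20 and 21 became 8 and 35 with library totals only, and the 45 genes with any difference became 26 with close pairs added. All genes went from 6690 and 7670 to 2095 and 17418 with library totals only. They went to 4095 and 5088 with close pairs added, and to 9592 and 9761 without the libraries standing apart. Those with any difference went from 15460 to 8006 with close pairs added. Leaving out 1 library at a time gave 15 to 22 higher and 9 to 13 lower at discoloration against green fruit, 7 to 13 and 9 to 20 at initial maturity against discoloration, 18 to 24 and 19 to 22 at initial maturity against green fruit, and 40 to 49 with any difference. For all genes these fits gave 3478 to 6175 higher and 3151 to 6261 lower, 1993 to 5751 and 3315 to 6439, and 5618 to 8105 and 6820 to 8559. With any difference they gave 13526 to 18180.

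For the genes using cleavage products, at discoloration against green fruit 9 higher and 16 lower became 0 and 25 with library totals only, 1 and 6 with close pairs added and 16 higher without the libraries standing apart. Between initial maturity and discoloration, 5 and 9 became 3 and 18, 1 and 2, and 12 and 20 under the same alternatives. For initial maturity against green fruit, 10 and 16 became 2 and 29 with library totals only, 4 higher with close pairs added and 18 higher without the libraries standing apart. Leaving out 1 library gave 5 to 13 and 10 to 17, then 1 to 10 and 8 to 13, then 8 to 13 and 15 to 16, in the order of these comparisons. The counts of all genes under these alternatives are those given above for the sucrose genes.

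With library totals only, 6 named log2 fold changes turned. They were, at initial maturity against green fruit, -0.78 for FtPinG0001400800.01, -0.59 for FtPinG0001494100.01 and -0.44 for FtPinG0008165300.01. These passed the edgeR threshold as lower (adjusted p = 0.00217, 0.0284 and 0.0367). At discoloration against green fruit they were -0.00088 for FtPinG0001658200.01, -0.23 for FtPinG0008165100.01 and -0.15 for FtPinG0008165300.01. This scaling moves all genes by construction. Log2 ratios of summed levels on the deposited FPKM scale moved at discoloration against green fruit to -2.97 for acid invertases, -1.50 for neutral invertases, -0.12 for sucrose-phosphate synthases, -1.16 for sucrose-phosphatases, 0.0023 for sucrose transport proteins and -0.57 for SWEETs. They moved, at initial maturity against discoloration, to 0.30 for sucrose synthases, -0.086 for acid invertases, -0.21 for neutral invertases, -0.42 for sucrose-phosphatases, -1.30 for sucrose transport proteins and -0.42 for SWEETs. For acid invertases the move is not due to scaling alone, since deposited vacuolar values differ otherwise too (see how the data were processed). For neutral invertases, sucrose-phosphate synthases, sucrose-phosphatases, sucrose transport proteins and SWEETs, TMM-scaled ratios at discoloration against green fruit were -0.50, 0.87, -0.18, 0.96 and 0.40. In that comparison the median log2 fold change of all genes was -0.04 with TMM and -1.03 with library totals only. The part of scaling in these and the other changes was not tested.

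Library numbers were checked for pairing by the correlation of deviations from stage means. Between same-numbered libraries of different stages r was -0.14 to 0.13, and between differently numbered ones -0.16 to 0.16, so the numbers were not taken to mark a plant. Each stage has a library that stands apart and shapes these deviations. Low r therefore cannot show that the numbers do not mark plants. With a replicate block, 18 sucrose genes were higher and 10 lower at discoloration against green fruit, 10 and 13 at initial maturity against discoloration, and 21 and 20 at initial maturity against green fruit, with 44 for any difference, and 5 of the 65 named calls were past the threshold only without it. Of all 23631 genes, 4317 were then higher and 4168 lower, 3405 and 4444, and 6520 and 7350, with 14616 for any difference. With the block, the adjusted p (edgeR) was 0.0587 for FtPinG0005000000.01 and 0.052 for FtPinG0006373800.01 at initial maturity against discoloration, 0.0595 for FtPinG0006373800.01 and 0.0726 for FtPinG0003580000.01 at discoloration against green fruit, and 0.0733 for FtPinG0000810100.01 at initial maturity against green fruit. Genes with at most 33 counts in all libraries could not be tested at this depth.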

Other observations

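The deposited variant tables hold 170 sites within the 82 sucrose genes, 104 SNPs and 66 InDels, in 47 of the genes. They were not spread evenly. FtPinG0000812400.01 held 29, 25 of them InDels and 24 called 1/1 in all libraries. FtPinG0001943900.01 held 17, all InDels, 15 of them so called. All 9 libraries had the same call at 102 sites: 60 with the non-reference call 1/1 and 38 with the reference call 0/0 in every library, and 4 with another call. A call in every library need not rest on counted reads of that library. FtPinG0005321500.01 had 4 sites called 1/1 in all 9 libraries. It had 0 counts in discoloration 1 and 3 and in initial maturity 1, 2 and 3. At 68 sites the calls differed between libraries. The cell wall invertase FtPinG0003938000.01 has 7 sites on chromosome 2, and the calls differed at 5 of them. At 58761867, 58761958 and 58762155, initial maturity 2, a library that stands apart from the others of its stage, was called 0/1, and initial maturity 1 and 3 and all 3 discoloration libraries were called 1/1. Calls at green fruit, where this gene had 0.131 to 0.268 TMM-scaled FPKM, were mixed at these sites.

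All 36 sucrose genes with a KEGG orthology entry in the deposited descriptions were among the 55 tested, and none of the 27 untested genes had such an entry. The 82 genes lie on all 8 chromosomes, with 17 each on chromosomes 1 and 3 and 4 each on chromosomes 6 and 8.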
